A study of Saccharomyces cerevisiae with 6 samples.

Results

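The DNA eluted from gel section A in a Topo-seq experiment was compared, fragment by fragment, with the nucleosome DNA library from which it was taken (NucLib). A fragment was one pair of insert ends on the genome of Saccharomyces cerevisiae, and it entered the comparison when it had 10 or more reads, summed over 2 sequencing runs, in each condition. Of 170675 fragments listed in at least 1 of the 4 lists, 8900 met this rule, and the 6 lists of the whole series, which also cover gel section B, held 220689. The 8900 fragments carried 90.5% of the NucLib reads and 93.5% of the section A reads. A further 2062 fragments had 10 reads in NucLib only and 3201 in section A only, with a median of 13 reads among the latter, and these were counted but not compared.

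All samples came from strain FY251, which is MATa and carries the alleles his3-∆200, leu2-D1, trp1-∆63 and ura3-52, and no sample had a treatment. Micrococcal nuclease fragments of its chromatin had been cloned into the circular minichromosome YCp1.3, and the transformed colonies, each with its own insert, had been pooled. NucLib is that pool before the gel, and section A is the upper part of the gel lane, where minichromosomes of less negative ∆Lk run, after elution and PCR of the inserts. Whether NucLib was amplified by the same PCR is not given in the sources used here, so a difference between NucLib and section A cannot be told apart from one in preparation. Topo-seq was carried out once and each sample was sequenced in 2 runs, so the runs are technical replicates and every test below measures sequencing and counting error only. With 2 runs a side, an exact permutation test cannot go below p = 0.333.

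A nucleosome is a stretch of DNA wrapped in left-handed turns around a core of histones, and the wrapping restrains negative DNA supercoils. The linking number difference that it restrains, ∆Lk, shifts the ladder of topoisomers of the circle that carries it, so circles that differ only in their nucleosome can part in an agarose gel. Rigid runs of A and T and the steps AA and TT, and the share of G and C, are known to affect how easily DNA bends around the histones.

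The inserts below are examples from the fragments named by rule: LPX1, ERC1 and YLR278C for their reads, ADE16, AIM36 and the chromosome-end repeats for large differences, and SRX1, SRC1 and KAP123 for few or many AA and TT steps. They are written 5′ to 3′ on the forward strand of R64, with every AA and TT step in capitals.
LPX1, chrXV:480630-480787: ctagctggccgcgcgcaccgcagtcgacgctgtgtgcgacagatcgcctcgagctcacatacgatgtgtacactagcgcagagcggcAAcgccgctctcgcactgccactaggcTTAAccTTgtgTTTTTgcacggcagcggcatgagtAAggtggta
ERC1, chrVIII:174448-174586: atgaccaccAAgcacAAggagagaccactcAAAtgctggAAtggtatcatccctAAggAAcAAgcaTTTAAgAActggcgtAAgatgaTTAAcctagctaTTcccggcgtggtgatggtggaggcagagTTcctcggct
SRX1, chrXI:278498-278637: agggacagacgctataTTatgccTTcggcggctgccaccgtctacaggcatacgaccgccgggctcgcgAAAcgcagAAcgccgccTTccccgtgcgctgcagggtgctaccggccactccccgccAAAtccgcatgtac
ADE16, chrXII:199722-199871: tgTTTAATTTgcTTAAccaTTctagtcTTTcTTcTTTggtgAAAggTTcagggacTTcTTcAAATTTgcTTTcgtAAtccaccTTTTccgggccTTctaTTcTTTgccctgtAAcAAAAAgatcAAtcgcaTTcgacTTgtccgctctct
YLR278C, chrXII:700733-700861: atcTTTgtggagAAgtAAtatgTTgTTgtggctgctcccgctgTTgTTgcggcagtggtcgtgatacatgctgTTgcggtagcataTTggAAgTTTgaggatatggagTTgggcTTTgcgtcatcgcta
AIM36, chrXIII:571586-571738: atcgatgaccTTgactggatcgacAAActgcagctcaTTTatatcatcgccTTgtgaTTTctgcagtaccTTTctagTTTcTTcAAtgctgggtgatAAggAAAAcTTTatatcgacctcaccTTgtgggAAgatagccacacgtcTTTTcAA
SRC1, chrXIII:211139-211313: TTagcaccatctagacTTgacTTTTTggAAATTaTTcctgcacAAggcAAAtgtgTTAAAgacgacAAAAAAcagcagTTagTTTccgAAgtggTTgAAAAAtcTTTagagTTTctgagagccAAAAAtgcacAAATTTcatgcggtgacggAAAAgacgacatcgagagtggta
KAP123, chrV:378723-378880: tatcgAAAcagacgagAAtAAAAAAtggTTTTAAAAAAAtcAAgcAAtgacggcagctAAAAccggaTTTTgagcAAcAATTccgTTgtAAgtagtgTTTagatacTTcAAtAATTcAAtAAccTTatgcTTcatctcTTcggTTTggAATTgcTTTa
right end of chromosome XI, chrXI:666613-666748: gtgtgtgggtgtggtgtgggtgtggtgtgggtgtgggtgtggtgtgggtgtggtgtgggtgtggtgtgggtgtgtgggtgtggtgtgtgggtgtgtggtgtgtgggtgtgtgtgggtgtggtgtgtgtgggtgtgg
left end of chromosome III, chrIII:100-231: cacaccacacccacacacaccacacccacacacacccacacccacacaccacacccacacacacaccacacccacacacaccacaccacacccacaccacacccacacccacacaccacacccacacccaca
The first 4 had higher shares of reads in section A and the next 4 lower shares, and the last pair are chromosome-end repeats, of which the first had a higher and the second a lower share. LPX1 and SRX1 held 9 and 8 AA or TT steps, whereas SRC1 and KAP123 held 45 and 47. ADE16, with 40 such steps, did not follow that order, nor did YLR278C, the lowest of all, whose 16 steps were fewer than the 17 of ERC1, and neither chromosome-end repeat held any.

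The lists summed to 851697 and 1748161 reads for the NucLib runs and to 2073823 and 1698433 for the section A runs. A fragment of the 8900 had a median of 51 reads in NucLib and 53 in section A, so that counting alone gave the median fragment a standard error of 0.29 on the log2 scale. Between runs of one condition, the counts differed slightly more than sampling noise, with a mean chi-square of 1.30 for NucLib and 1.39 for section A where sampling alone gives about 1.

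One insert weighed heavily on the scale of the comparison. The LPX1 fragment, 158 bp from the coding region of the gene for a peroxisomal lipase, took 9.96% and 10.3% of the reads in the NucLib runs and 23.3% in each section A run. Its log2 ratio of section A to NucLib was 1.19 (SE 0.013 by edgeR, adjusted p = 6.7e-39, higher in 2 of 2 run pairs). The shares of all fragments sum to the whole, so a larger share of one lowers the others. The median log2 ratio over all 8900 was -0.41 (SD 0.74, run pairs -0.39 and -0.41), and 25.9% of them lay above 0. Without the reads of LPX1 and the fragments overlapping it, the median was still -0.18, and with edgeR's trimmed-mean scaling (TMM) -0.01. Fragments with equal numbers of reads in both conditions have a log2 ratio of -0.54, which several medians below equal. Differences between groups of fragments do not depend on this scale, but the sign of a fragment's ratio does, so the counts of gained and lost fragments are set beside those with TMM.

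With list totals as the scale, edgeR's quasi-likelihood test called 566 fragments gained (6.36% of 8900) and 2899 lost (32.6%) at an adjusted p under 0.05. With TMM it called 1419 gained (15.9%) and 1310 lost (14.7%), so that 38.9% and 30.7% of the fragments were called in either direction. The log2 ratios of the run pairs correlated across fragments with r = 0.58, and with r = 0.92 across the 1543 fragments with 200 or more reads in each condition, whose ratios had an SD of 0.51. Fragments are not independent replicates, since many share an insert. A lead fragment was therefore taken for each stretch of DNA, the one with the most NucLib reads that shares under 50 bp with any earlier lead, which left 4372 leads with a median of -0.51. Of these, 202 were gained (4.62%) and 2015 lost (46.1%) with list totals, and 589 (13.5%) and 938 (21.5%) with TMM.

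The 5 leads with the most reads differed widely in their ratios. CAR2, the gene for ornithine transaminase, gave a 146-bp fragment (chrXII:1012551-1012696) with 5.89% and 5.98% of NucLib reads and 7.43% and 7.44% of section A reads, a log2 ratio of 0.32. IRA2, which encodes a Ras GTPase-activating protein, gave one of 145 bp (chrXV:177094-177238) with 2.43% and 2.47% in NucLib and 2.33% and 2.30% in section A, a log2 ratio of -0.08. The groups did not overlap for either insert, and IRA2 was called lost with list totals and gained with TMM.

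The 139-bp ERC1 fragment, from the gene of a membrane transporter linked to ethionine resistance, had 1.47% of the reads in each NucLib run and 3.83% and 3.78% in section A. Both section A runs were higher, with a log2 ratio of 1.38 (edgeR adjusted p = 7.0e-36). The 129-bp YLR278C fragment, from a gene for a zinc-cluster protein, had 1.26% and 1.29% of the reads in NucLib and 0.0389% and 0.0373% in section A. Its log2 ratio of -5.07 was the lowest of all 8900 (adjusted p = 8.6e-46), a level 33.5-fold lower. In section B the same fragment had 0.379% and 0.381%, below NucLib and above section A.

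**Figure D1:**
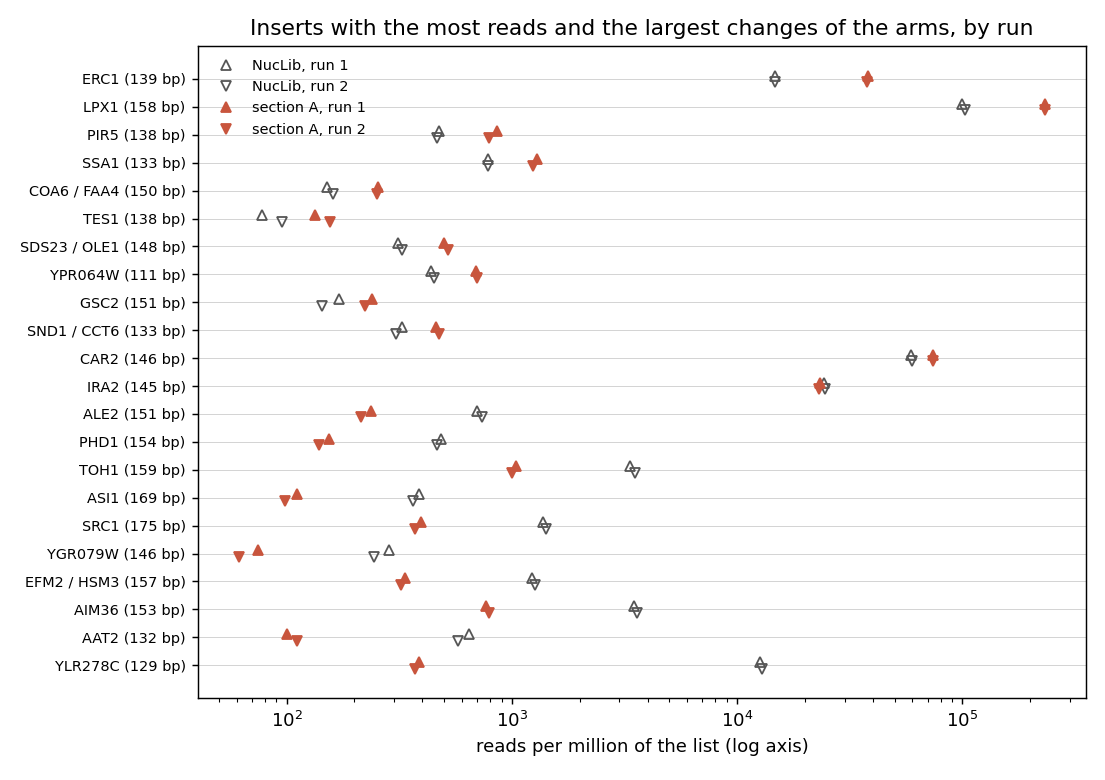
Reads of each list scaled to a common total (RPM, x axis, log scale) for the leads with the most NucLib reads and the leads of the chromosome arms with the highest and lowest ratios, ordered by ratio; open symbols are NucLib runs, filled symbols section A runs, and triangles point up for run 1 and down for run 2. The symbols of one condition lie close together, and the conditions separate for every insert except IRA2, where they nearly touch.

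Leads of single-copy sequence in the chromosome arms with 200 or more reads in each condition were ranked by ratio. With list totals, 612 were called and had run pairs on the same side of the median, 78 of them gained and 534 lost. Within the same 612, TMM called 101 gained and 279 lost. Leads that only TMM calls are not counted there. After ERC1 and LPX1, the highest were PIR5, which encodes a cell-wall protein (138 bp, log2 0.82), SSA1 of the Hsp70 chaperones (133 bp, 0.70), the intergenic DNA between COA6 and FAA4 (150 bp, 0.68), TES1, which encodes a peroxisomal thioesterase (138 bp, 0.68), and the DNA between SDS23 and OLE1 (148 bp, 0.67). SSA1 had 667 and 1370 reads in the NucLib runs and 2686 and 2113 in section A. YPR064W (111 bp) reached 0.64, GSC2, for a subunit of glucan synthase (151 bp), 0.59 and the DNA between SND1 and CCT6 (133 bp) 0.58. The adjusted p-values of the 10 ranged from 6.7e-39 to 2.3e-05.

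The lowest after YLR278C were AAT2, for the cytosolic aspartate aminotransferase (132 bp, log2 -2.50), AIM36, for a mitochondrial protein (153 bp, -2.20), the DNA between EFM2 and HSM3 (157 bp, -1.93), YGR079W (146 bp, -1.91) and SRC1, for an inner nuclear membrane protein (175 bp, -1.86). AIM36 had 2973 and 6295 reads in the NucLib runs and 1591 and 1337 in section A, and AAT2 547 and 1003 against 209 and 189. ASI1 (169 bp, -1.81), TOH1 (159 bp, -1.76), PHD1 (154 bp, -1.68) and ALE2 (151 bp, -1.67) followed. The lost inserts ran from 129 to 175 bp and the gained ones from 111 to 158 bp. In section B, AIM36, EFM2 and HSM3, SRC1 and TOH1 also lay below NucLib (log2 -2.39, -1.95, -2.25 and -2.31), whereas AAT2 was at -0.01. Sections A and B are set against the same NucLib reads, so a low value in both can come from NucLib alone.

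Within 140 to under 150 bp, where length hardly differs, the highest leads were SDS23 and OLE1 (0.67), SRX1, for sulfiredoxin (140 bp, 0.57), and SCD5 (143 bp, 0.52), and the lowest YGR079W (-1.91), ARA2 (144 bp, -1.64) and ADE2, an enzyme of adenine synthesis (149 bp, -1.47). SRX1 had a GC content of 65.0% and ARA2 of 37.5%.

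A few fragments were scarce in NucLib and common in section A. The 152-bp ISR1 fragment (chrXVI:740973-741124) had 4 and 9 reads in the NucLib runs and 308 and 266 in section A, a log2 ratio of 4.93 that was the highest of all, and 432 reads in section B. The 150-bp ADE16 fragment had 61 and 119 NucLib reads and 3821 and 3070 in section A, a log2 ratio of 4.72 (adjusted p = 3.6e-35), with 4.51 in section B. The 82-bp fragment between ZDS2 and YML108W followed with 3.70, and 4.17 in section B. ISR1 and ZDS2 were named after their values were seen. All of them were scarce in NucLib alone, with far more reads in both gel sections.

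The section A lists held a narrower window of lengths than the NucLib lists. From 81 to 82 bp the reads per length of the section A runs went from 128 to 947 and from 133 to 825, and no fragment was longer than 215 bp. In NucLib the corresponding step lay at 67 bp and the longest fragment had 225 bp. Of 51 fragments shorter than 82 bp with 50 or more NucLib reads, 46 were in neither section A list and 2 had 10 or more reads there. A 69-bp fragment of chromosome IV (chrIV:768782-768850) had 1188 and 2353 reads in NucLib and 3092 and 3867 in section B, and neither section A list held it. Because most such fragments were not listed and the edge is sharp to 1 bp, no loss was read from lengths outside 82 to 215 bp that section A lacks. Of the 8900 fragments, 20 lay outside, and without them 562 were gained and 2896 lost.

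**Figure D2:**
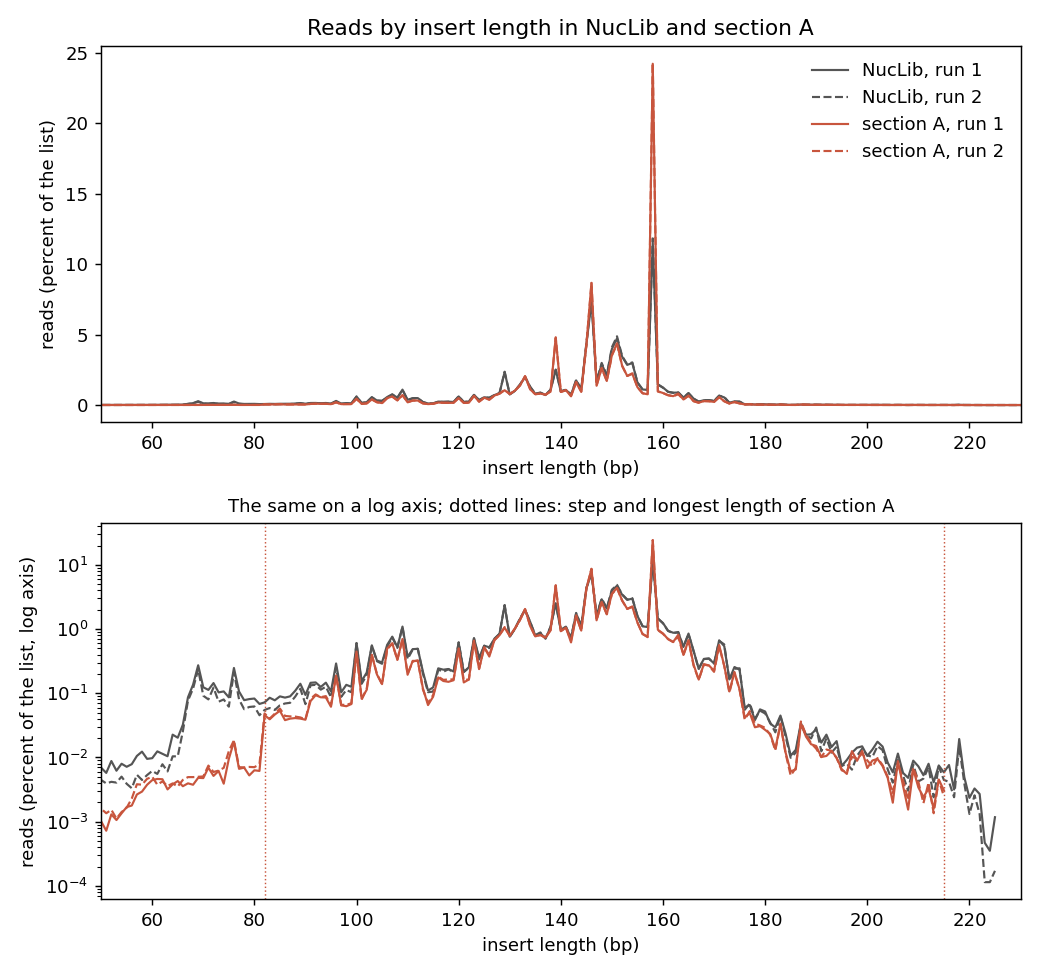
Percent of the reads of each list (y axis, linear above and log below) at each insert length in bp (x axis) for the NucLib runs in grey and the section A runs in red, with run 2 dashed. The curves of section A drop at the dotted line at 82 bp and end at the one at 215 bp, and the peak at 158 bp, which is LPX1, is higher in section A.

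Inside the window, length and section A were related weakly and not in one direction. The median log2 ratio was highest at 130 to under 140 bp (-0.19, n = 1102 fragments) and was lower on both sides, with -0.54 at 110 to under 120 bp (n = 371) and -0.59 and -0.61 at 160 to under 170 and 170 to under 180 bp (n = 950 and 343). The run pairs gave -0.12 and -0.19 for the highest class, and -0.55 and -0.60 at 170 to under 180 bp. Fragments under 140 bp lay 0.12 above longer ones (medians -0.33 and -0.45, n = 2976 and 5924), whose 25th and 75th percentiles were -0.88 and -0.04. The difference was 0.24 among leads and -0.01 with a limit of 130 bp, so it rests on where the limit is set. Of fragments under 140 bp, 269 were gained (9.04%) and 748 lost (25.1%) with list totals, and of longer ones 297 (5.01%) and 2151 (36.3%). All fragments together had 6.36% and 32.6%. With TMM, 582 (19.6%) and 347 (11.7%) of the shorter ones were called. Of the longer ones it called 837 (14.1%) and 963 (16.3%), against 15.9% and 14.7% of all.

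By single base pairs, among 52 lengths with at least 50 fragments, the highest medians were at 130 bp (-0.00), 134 bp (-0.03) and 140 bp (-0.08), and the lowest at 167 bp (-0.88), 166 bp (-0.81) and 171 bp (-0.70). In single-copy fragments of the arms the decline beyond 140 bp was steady, with medians of -0.45, -0.59, -0.71 and -0.78 for the successive classes of 10 bp from 140 to under 180 bp. Section B ran otherwise over the same fragments: its median against NucLib was 1.25 at 110 to under 120 bp, -0.31 at 130 to under 140 bp and -0.95 at 140 to under 150 bp. Short inserts thus stood far above NucLib in section B and near the middle in section A.

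**Figure D3:**
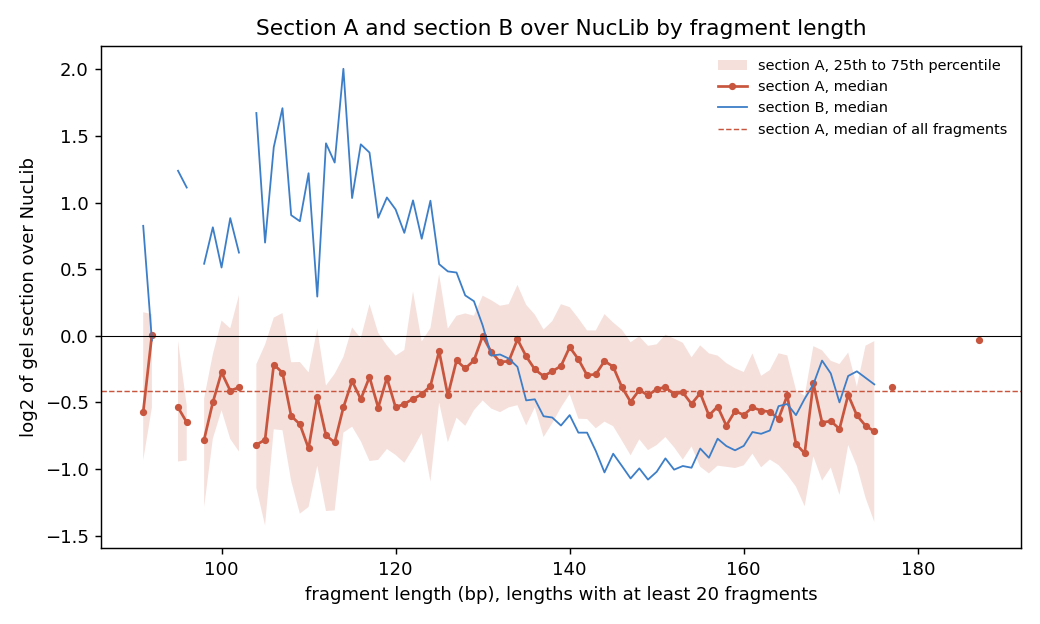
Median log2 ratio to NucLib (y axis) at each fragment length in bp (x axis) with at least 20 fragments, for section A in red with its 25th to 75th percentile shaded and for section B in blue; the dashed line is the section A median of -0.41. Section A has its highest medians near 130 to 140 bp and stays near the line at most lengths, while section B falls from above 1 at the short lengths to about -1 near 150 bp.

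The share of reads by length gave another view, because abundant inserts weigh more there. Fragments under 140 bp took 31.7% and 30.7% of the reads in the NucLib runs (exact 95% intervals 31.6 to 31.8 and 30.6 to 30.7) and 26.1% and 26.3% in section A (26.1 to 26.2 and 26.2 to 26.3). Without LPX1 and the fragments overlapping it, the shares were 35.1% and 34.1% in NucLib and 34.1% and 34.3% in section A, which overlap. These intervals cover counting error only. In section B, 56.5% and 56.1% of the reads lay under 140 bp.

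The medians spread further over classes of base composition than over classes of length. The median log2 ratio was higher in each successive class of GC content, from -1.10 under 30% GC (n = 59) through -0.81 (30 to under 35%, n = 633), -0.62 (35 to under 40%, n = 1887), -0.43 (40 to under 45%, n = 2273) and -0.30 (45 to under 50%, n = 1871) to -0.08 (50 to under 55%, n = 1153) and -0.06 (55% and over, n = 1024). The run pairs gave -1.17 and -1.08 for the lowest class and -0.01 and -0.07 for the highest. In leads of single-copy arm sequence, the range was wider, from -1.19 to 0.32. Under 30% GC no fragment was gained and 33 were lost (55.9%) with list totals, or 0 and 23 (39.0%) with TMM. At 55% GC and over, 185 were gained and 185 lost (18.1% each), or 313 (30.6%) and 104 (10.2%) with TMM. The shares of all fragments were 6.36% and 32.6%, or 15.9% and 14.7% with TMM.

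**Figure D4:**
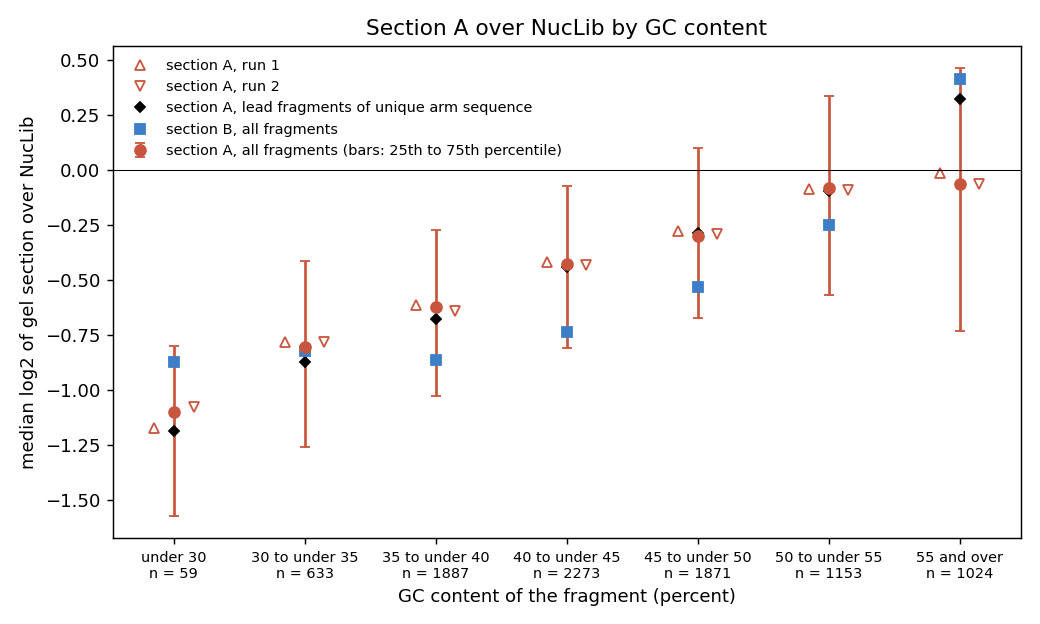
Median log2 ratio of section A to NucLib (y axis) in classes of GC content (x axis, percent, with the number of fragments), with bars from the 25th to the 75th percentile, open triangles for the run pairs, black diamonds for leads of single-copy arm sequence and blue squares for section B over NucLib. The medians of section A rise from -1.10 to -0.06 across the classes in both run pairs.

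Spearman's rho between GC content and the log2 ratio was 0.33 over the 8900 fragments, 0.28 and 0.31 in the run pairs, 0.39 over the leads and 0.41 over fragments of 140 to under 160 bp. It stayed at 0.33 after the median of fragments within 2 bp of the same length was subtracted from each ratio. These are descriptions across fragments of the same libraries and carry no p. In fragments of 140 to under 160 bp, the median went from -1.27 under 30% GC to 0.13 at 55% and over.

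Of the 10 dinucleotide classes, counted on both strands, AA/TT had the strongest relation, with a rho of -0.38 over all fragments, -0.46 over leads and -0.47 at 140 to under 160 bp. GC steps (0.27), GG/CC (0.20), AC/GT (0.19), CG (0.19) and CA/TG (0.17) went the other way, while GA/TC (-0.17), AT (-0.17), AG/CT (0.09) and TA (-0.06) were weaker. AA/TT made up 9.84% of the steps (SD 5.40) in gained fragments, 15.4% in fragments with no call and 18.4% (SD 6.10) in lost ones. The TA step, though made of the same bases, made up 5.28% (SD 2.77) of the steps in gained and 6.26% (SD 2.54) in lost fragments. The tenth of fragments with the lowest ratios held 18.5% AA/TT and 42.9% GC, and the tenth with the highest 10.7% and 50.8%.

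Runs of 5 or more A or T (AAAAA on either strand) followed the same order. They occurred in 34.4% of the 8900 fragments and in 58.2% of consecutive 150-bp stretches of the genome, against 39.9% of the used fragments of exactly 150 bp. Fragments with such a run had a median of -0.60 (n = 3060, 76 gained and 1337 lost, or 259 and 656 with TMM), and those without one -0.30 (n = 5840, 490 and 1562, or 1160 and 654). The 2 groups differ in size, and the shares of all 8900 fragments were 6.36% gained and 32.6% lost (15.9% and 14.7% with TMM). Within 35 to under 40% GC, the medians were -0.72 with and -0.47 without a run, and within 40 to under 45% GC -0.54 and -0.37. At 50 to under 55% GC they were -0.01 and -0.09, in the opposite order, with 105 fragments holding a run. KAP123, shown above, holds 2 such runs (SRC1 holds 4, and LPX1 and ADE16 hold 1 each) and had 111 and 225 reads in the NucLib runs and 53 and 48 in section A, a log2 ratio of -2.27 (adjusted p = 4.5e-14).

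GC content was related to section B as it was to section A. Over the 8011 fragments with 10 or more reads in section B as well, rho between GC content and the ratio of section B to NucLib was 0.33, and that of AA/TT was -0.36. Both comparisons use the same NucLib reads. When section A was set directly against section B, without NucLib, rho was -0.07 with GC content and 0.06 with AA/TT, both close to 0 and of the opposite sign. Inserts of low GC content were thus lower in both gel sections than in NucLib. The values of section A against section B were not adjusted for length, with which section B varied strongly. Within 140 to under 160 bp, the medians of sections A and B against NucLib were -1.27 and -1.41 under 30% GC. They were -0.41 and -1.03 at 40 to under 45% GC, and 0.13 and -0.06 at 55% and over, so the distance between the sections differed by class.

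Among regions with at least 50 fragments, the medians were highest in the 25S rDNA (-0.10, n = 1049), at 1 to 10 kb from a chromosome end (-0.17, n = 593) and within 1 kb of an end (-0.24, n = 260), and lowest in intergenic DNA of the arms (-0.63, n = 740). The run pairs gave -0.08 and -0.09 for the 25S rDNA and -0.63 in both for intergenic DNA. Within protein-coding genes of the arms, the median over all fragments declined along the gene, from -0.44 in the first 500 bp (n = 1608) to -0.52 in the middle (n = 2203) and -0.56 in the last 200 bp (n = 425). The median GC contents of these parts were 43.8%, 41.4% and 41.6%, and that of intergenic DNA was 38.4%. Among leads, the medians of the gene parts were -0.44, -0.54 and -0.54, with no decline from the middle to the last 200 bp. Ty elements and LTRs, the retrotransposons of yeast and their terminal repeats, lay at -0.33 (n = 589) with a GC content of 39.6%. Of them, 8 were gained (1.36%) and 85 lost (14.4%), or 39 (6.62%) and 11 (1.87%) with TMM. Both shares were below those of all fragments (6.36% and 32.6%, or 15.9% and 14.7% with TMM).

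After the median for length and then that for GC class were subtracted, the middle and last 200 bp of genes came to 0.01 and -0.03, and their first 500 bp and intergenic DNA lay between these values, so that the spread of their medians nearly vanished. Against a median of 0.06 over all 8900 fragments, the 25S rDNA kept 0.22, the non-transcribed spacers 0.14, Ty elements and LTRs 0.22 and the stretch 1 to 10 kb from an end 0.15. Within 1 kb of an end nothing was kept, with -0.03 (run pairs -0.17 and -0.16). These remainders are small beside the spread within a region: before adjustment, the 25th and 75th percentiles of the 25S rDNA were -0.58 and 0.30, and those of Ty elements and LTRs -0.65 and 0.05. For leads alone, adjusted for length only, the median over all was -0.10. It was -0.08 in the 25S rDNA (37 leads) and -0.21 in the non-transcribed spacers (18 leads). Ty elements and LTRs lay at 0.07 (95 leads) and the stretch 1 to 10 kb from an end at 0.05 (127 leads).

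**Figure D5:**
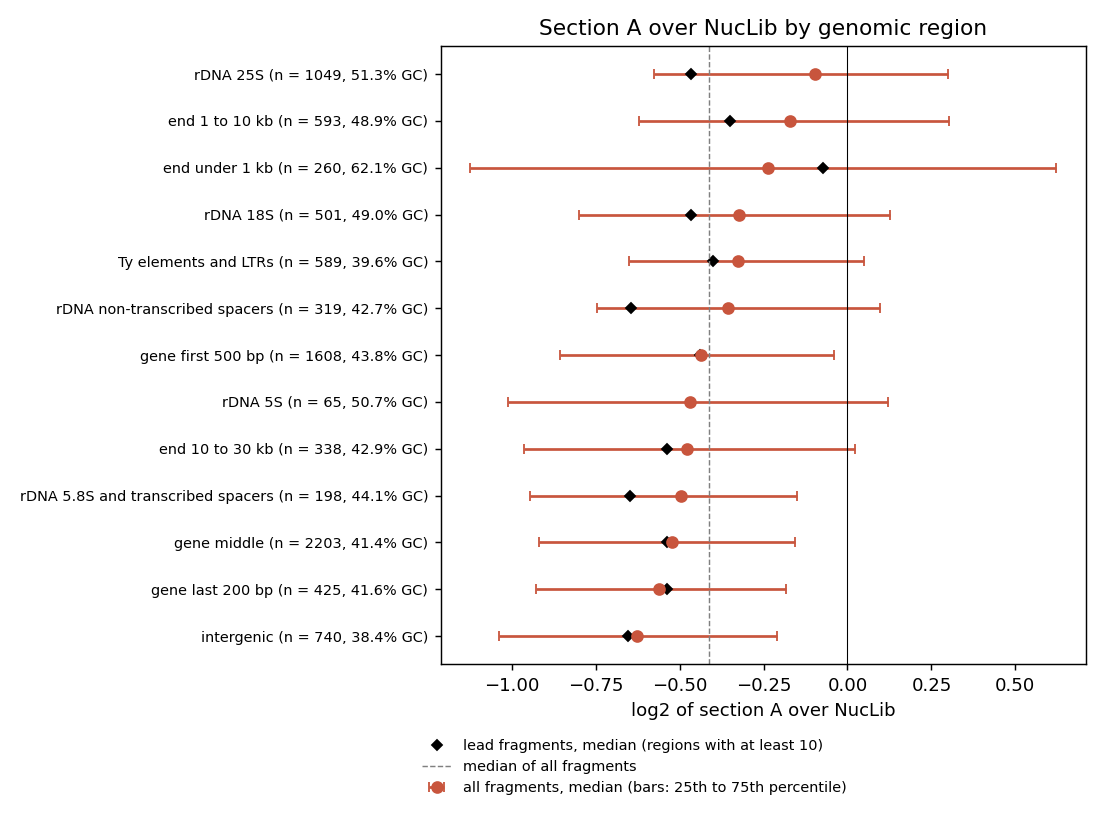
Median log2 ratio of section A to NucLib (x axis) for each genomic region with at least 50 fragments (y axis, with the number of fragments and their median GC content), with bars from the 25th to the 75th percentile and black diamonds for the leads alone. The 25S rDNA and the chromosome ends have the highest medians and intergenic DNA the lowest, and the leads of the rDNA lie far below the median of all its fragments.

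The rDNA, the tandem array that encodes ribosomal RNA, gave 2132 fragments with a median of -0.24 against -0.49 in the arms, of which 179 were gained and 427 lost with list totals (459 and 172 with TMM). The reference holds 2 copies of the repeat, so most rDNA sequences occur at both, and their fragments are not independent. How reads with several possible positions were placed is not given in the sources used here, which also bears on the Ty, Y′ and FLO values. With leads alone the order of rDNA and arms was lost, with medians of -0.54 (n = 91) and -0.52 (n = 3923). Along the repeat, counted in bins of 500 bp from the start of the 35S gene, medians were highest in the 25S part from 5000 to 5500 bp (0.16, n = 382, GC content 56.5%) and from 4500 to 5000 bp (0.07, n = 158, 53.2%), and low from 500 to 1000 bp (-0.69, n = 56, 35.6%).

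Among rDNA leads, the highest in 25S was a 145-bp fragment (chrXII:453775-453919) with 497 and 1081 reads in the NucLib runs and 1872 and 1592 in section A, a log2 ratio of 0.60. The lowest was a 108-bp fragment (chrXII:453488-453595) with 84 and 142 against 65 and 69, at -1.29, and it stood at 1.81 in section B. In 18S the leads ranged from 0.62 (131 bp) to -0.82 (153 bp). With list totals, none of the 198 fragments in the 5.8S gene and transcribed spacers was gained. There, 55 were lost (27.8%, against 32.6% of all fragments). With TMM, 14 were gained (7.07%) and 15 lost (7.58%), against 15.9% and 14.7% of all fragments. The non-transcribed spacers ranged from 0.44 to -0.98 among their named leads, and the 5S gene had 1 lead only.

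Chromosome ends varied more than any other region. The 221 fragments within 1 kb of an end that held no AA or TT step, made of the short G-rich repeats of telomeres with 62.2% GC, had a median of -0.30 but an SD of 1.31, from -3.68 to 2.26, with 56 gained and 69 lost (61 and 42 with TMM). Their run pairs correlated with r = 0.79. These fragments gave only 15 leads, so most share sequence with another fragment and are not independent. Over all 8900 fragments, 6.36% were gained and 32.6% lost (15.9% and 14.7% with TMM). The other 39 fragments so near an end had an SD of 0.63. The 2 repeat fragments shown above lay far apart: that of chromosome XI had 27 and 47 reads in the NucLib runs and 270 and 182 in section A (log2 2.07, adjusted p = 3.3e-12), whereas that of chromosome III had 158 and 320 against 34 and 20 (log2 -3.68, adjusted p = 1.6e-19). Summed over all ends, the repeat fragments came to -0.07. The 76 at the left end of chromosome III and the 81 at the right end of chromosome XIV each came to -0.13, so opposite values largely cancelled there. Ends with fewer repeat fragments lay further apart. The sums were 1.19 at the right end of chromosome XIII (n = 4), 0.72 at that of I (n = 3) and 0.50 at that of XI (n = 20). They were 0.06 at the left end of IV (n = 16) and -0.36 at the right end of VIII (n = 21). Both fragments shown occur once in R64.

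From 1 to 10 kb, the leads with 50 or more reads in each condition ranged from YRF1-2, a Y′-element helicase gene (134 bp, 8 copies in the reference, log2 1.07), and YBL113C (131 bp, 0.96) down to COS7 (158 bp, -2.21), which had 82 and 135 reads in the NucLib runs and 34 and 34 in section A. From 10 to 30 kb the median was -0.48 (n = 338), close to that of the arms, with FLO9, a flocculin gene of lectin-like cell-wall proteins (148 bp, 6 copies), at 1.01 and NIP1, for a subunit of initiation factor eIF3 (151 bp), at -1.59.

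The arms of the 16 chromosomes differed little, with medians from -0.60 on chromosome V (n = 265) to -0.36 on chromosome I (n = 113). Chromosomes V and XI, both at -0.60, had median GC contents of 40.8% and 40.3%, and chromosomes I and VIII, at -0.36 and -0.40, 44.4% and 44.2%. Other chromosomes did not keep this order: XVI (40.1% GC) was at -0.48, II (40.5%) at -0.44 and XV (43.8%) at -0.45. Only 7 fragments lay within 1 kb of a centromere (median -0.22) and 5 in tRNA genes (-0.48), too few to compare.

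Within arm genes, the first 500 bp held UTH1, which encodes a SUN-family protein (142 bp), with 19 and 36 reads in the NucLib runs and 103 and 71 in section A (log2 1.12), and SIS2, for an inhibitor of a protein phosphatase (127 bp), with 627 and 1247 against 95 and 60 (log2 -4.13, adjusted p = 1.4e-28). SIS2 stood at -0.01 in section B, and STE5, the scaffold of the pheromone kinase cascade (154 bp), was at -2.85, next to -2.83 in the other gel section. At gene ends, SED1, for a cell-wall protein (137 bp), was at 0.92 and ERV25, for a protein of vesicle transport (120 bp), at -2.61, with 1.84 in section B. In intergenic DNA the lowest were the fragments between YJR056C and SUP4 (148 bp, -3.02) and between DLT1 and SAS2 (171 bp, -2.38).

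Fragments in groups of genes chosen by symbol are set beside the 6.36% gained and 32.6% lost of all fragments (15.9% and 14.7% with TMM). All fragments include rDNA and chromosome ends. In protein-coding genes of the arms alone, 4.51% were gained and 40.6% lost (13.1% and 18.3% with TMM). Of 31 fragments in ribosomal protein genes, 0 were gained and 18 lost (58.1%), or 4 and 9 with TMM, with a median of -0.55. Their lost leads ranged from RPL20B at -2.39 to RPL7A at -0.42. By its symbol this group also took in RPP1, which encodes a subunit of RNase P. Glycolytic genes had 0 gained and 4 lost of 12 (0 and 2 with TMM), with PFK2, a phosphofructokinase subunit, at -0.69. Proteasome genes had 0 and 6 of 15 (2 and 3 with TMM), and respiratory genes, by symbol also CYC8, a corepressor, 0 and 9 of 20 (3 and 3). Hexose transporter genes had 1 and 10 of 21 with list totals but 5 and 2 with TMM. Of 17 fragments in chaperone genes, 2 were gained and 6 lost (4 and 3 with TMM), among them SSA1 (0.70) and SSA4 (-2.20), members of one Hsp70 family. Histone genes had 4 fragments only, with HTA1 lost at -1.89. The subtelomeric families PAU, COS, SEO, FLO and YRF1 had the highest median, -0.02 over 246 fragments, with 41 gained (16.7%) and 33 lost (13.4%), or 77 and 19 with TMM, and 15.4% of these fragments had a single copy in the genome. These counts describe the groups and were not tested against other genes.

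Minor fragments were set beside the insert whose end they share. A minor fragment was one with the same start or the same end as another that had 50 or more times its NucLib reads. For 1170 of them, the median log2 ratio was -0.36 and that of their 208 parents 0.01, with the minor fragment below the parent in 853 cases. Only 25.9% of all 8900 fragments had a ratio above 0. Most fragments of any kind would thus lie below such a parent, and the count of 853 says little. Around LPX1, 124 of 125 minor fragments lay below it, with a median of -0.12 against 1.19. Around CAR2 it was 94 of 98 (-0.31 against 0.32), around IRA2 48 of 54 (-0.53 against -0.08) and around ERC1 49 of 50 (0.54 against 1.38). LPX1 and ERC1 lay above the 95th percentile of all 8900 ratios (0.71), so nearly any fragment lies below them, and their counts say little. Against the median of all fragments (-0.41), the minor fragments of LPX1, CAR2 and ERC1 had higher medians and those of IRA2 a lower one. These fragments differ from the parent by the position of one end. Why their ratios differ from that of the parent was not tested.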

How the data were processed

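The deposited lists give, for each run, read counts per distinct insert by chromosome, start and end, and the authors made them from paired-end MiSeq reads trimmed with Cutadapt and aligned to R64-1-1 with Bowtie 1.1.2. SAMtools, Picard and BWA are also named in the submitters' processing notes, without a version. Each list stops at 65536 lines in falling order of count, so a fragment that is not listed was set to 0, and its count is known only to be low.

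Counts of 4 lists were joined by coordinates, and fragments with 10 or more reads per condition were kept. Log2 ratios used reads divided by list totals, and ratios of a single pair of runs had 0.5 added to each count. edgeR 4.0.16 in R 4.3.3 (quasi-likelihood test, Benjamini-Hochberg adjustment over all 8900 fragments) used list totals as library sizes, with TMM and DESeq2 1.42.0 as alternatives. Values were summarised with Python 3.11.15, pandas 2.3.3, numpy 2.4.6 and SciPy 1.17.1, drawn with Matplotlib 3.10.9, and the scripts were tested on simulated counts. List totals run from 851697 to 2073823 reads. Intervals are exact binomial ones at 95% and cover counting error only, since PCR reads are not independent molecules. Regions, gene names and sequences are from the RefSeq annotation of R64.

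A lead is, in order of NucLib reads, a fragment sharing under 50 bp with every lead before it, and of identical sequences only the first can lead. Named were the 5 leads with most NucLib reads, the 10 highest and 10 lowest called single-copy arm leads with 200 or more reads per condition and run pairs on one side of the median, the 3 highest and 3 lowest of these at 140 to under 150 bp, and the 2 highest and 2 lowest leads with 50 or more reads in each region of at least 5 leads. The members and lists were chosen with earlier results of these data known. Same-numbered lists of both conditions carry the same flow-cell name, so the replicate number marks a shared sequencing run. Same-numbered runs deviated together with a correlation of 0.155 over 4042 fragments. Section B was used only for values set beside those of section A.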

Additional observations from a re-analysis of the deposited data

Results flagged for a closer look

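Inserts shorter than 67 bp, the length at which the NucLib lists begin in earnest, held 4.63% of the reads of the section B runs combined (4.81% and 4.48%), a signal outside the comparison of section A. They held 0.331% and 0.199% in the NucLib runs and 0.0882% and 0.0893% in the section A runs. No explanation was tested.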

How the results depend on the processing

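The counts of calls depended on the scale. Against 566 gained and 2899 lost fragments with list totals, TMM gave 1419 and 1310, DESeq2 598 and 435, and totals without the most abundant insert 939 and 1929. A minimum of 50 reads gave 379 gained and 1920 lost of 4042 fragments tested. Leads tested alone gave 222 gained and 2148 lost of 4372. The main setting tested 8900 fragments, so a lower count in these smaller sets need not be a lower share. Leaving out 1 run gave 438 to 478 gained and 2046 to 2718 lost. With the replicate number as a block, the counts were 618 and 2994, and the block changed no call of a named fragment.

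The difference between fragments under and over 140 bp (0.117) was 0.122 without the most abundant insert, 0.0799, 0.157 and 0.155 with minimums of 5, 20 and 50 reads, 0.142 to 0.144 in single run pairs, 0.237 in leads, 0.140 with identical sequences summed, 0.170 without rDNA and chromosome ends, 0.177 with a limit of 150 bp and, with the opposite sign, -0.0131 with one of 130 bp. The rank correlation with GC content (0.326) was 0.247, 0.379 and 0.433 with these minimums, 0.278 to 0.306 in run pairs and 0.394 in leads. With section B in place of NucLib, chosen after seeing the data, it was -0.0700, and that of AA/TT 0.0559, both with the opposite sign.

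The difference between rDNA and arms (0.242) was 0.195, 0.320 and 0.411 with these minimums, 0.251 to 0.264 in run pairs, 0.224 with identical sequences summed, 0.281 in the study's coordinate list, 0.258 after adjustment for length and -0.0153 in leads. That between chromosome ends and arms (0.304) was 0.359 and 0.347 with minimums of 20 and 50 reads, 0.283 to 0.321 in run pairs, 0.193 in leads, 0.371 in the coordinate list and 0.258 after adjustment for length. The limit to lengths present in all lists, also chosen later, moved none of these. The causes were not tested.

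Of 1070 values recomputed for 67 named fragments under 16 settings, 1041 kept direction and call. The sign turned for IRA2 (0.318 with TMM, 0.317 with DESeq2, 0.149 without the most abundant insert) and for the uncalled RDN37-1 fragment at chrXII:455748-455895 (0.242, 0.216 and 0.073). Of the others, 21 lost the call: 8 without replicate 2 of NucLib, the deeper run, 7 with DESeq2, 3 with TMM, and 1 each without the most abundant insert, without replicate 1 of section A and without its replicate 2 (IRA2). Counting error limits most fragments, with a median of 51 NucLib reads.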
